A study of Mus musculus with 8 samples.

Results

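Proteins that enter the secretory pathway fold in the endoplasmic reticulum (ER) with the help of chaperones, oxidoreductases of the protein disulfide isomerase (PDI) family and a pair of lectin chaperones. When folding demand exceeds capacity, the sensors IRE1, ATF6 and PERK start the unfolded protein response (UPR). IRE1 splices the mRNA of the transcription factor XBP1, ATF6 is released from the membrane by proteolysis, and PERK slows translation while the transcription factor ATF4 is made. XBP1 and ATF6 raise the mRNAs of ER chaperones, and arsenite is better known for inducing cytosolic heat shock, antioxidant and ATF4-linked stress genes. Described here are 10 genes of this system, listed by that role. They are 10 of the 10690 genes listed in at least 1 table of the series, and all 10 are in each of the 3 tables. They are Hspa5 (BiP) and Hsp90b1 (GRP94), the main ER members of the Hsp70 and Hsp90 families, the oxidoreductases Pdia3, Pdia4 and Pdia6, the lectin chaperones Calr (calreticulin) and Canx (calnexin), and the UPR genes Dnajb9 (the BiP cochaperone ERdj4), Herpud1 (a membrane component of ER-associated degradation) and Xbp1.

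The mRNAs were measured in NIH3T3, an established line of mouse fibroblasts, by QuantSeq FWD, which sequences 1 short read near the 3′ end of each captured poly(A) RNA. The 4 conditions were cells without treatment (NT), cells kept for 1 h in 250 µM sodium arsenite (AS), and 2 recoveries. For these, cells stood in regular medium after that treatment and a wash, for either 4 h, called RC4, or 8 h, called RC8. Each condition has 1 QuantSeq FWD library, and all treated libraries were compared with the same NT library. The 4 conditions also have 1 QuantSeq REV library each, and these 4 were not analysed here. Reads on genes numbered 22.4 M to 23.0 M per library, and levels are given as RPM, the reads of a gene per 1000000 reads on all genes of that library.

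With 1 FWD library per condition there is no spread between cultures and no test. Changes are log2 ratios of RPM with a 95% exact interval that covers the counting of reads only, and a gene was called when it passed 1.5-fold. Reads carry no molecular identifiers, so they are not independent molecules. RPM values are relative to all reads on genes, and fewer cells or less RNA per cell cannot be told apart from this measure. Over all genes the median log2 change was −0.04 for AS, −0.30 for RC4 and 0.01 for RC8. As a check of the labels, Hmox1 (heme oxygenase) changed by 1.07, 5.01 and 1.87 on the log2 scale in AS, RC4 and RC8, and Hspa1b (inducible cytosolic Hsp70) by 2.37, 5.80 and 1.1. Of 10 fibroblast markers 9 were listed, and none of 10 markers of other cell types was listed.

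ATF6 and XBP1 act on chaperone genes through short promoter elements, and these are shown as a feature of the sequence of the 10 genes. The motifs were chosen after values had been seen. The ER stress response element (ERSE) was searched as CCAAT, any 9 bases and CCACG, and ERSE-II as ATTGG, any 1 base and CCACG, both on both strands, in RefSeq promoters of GRCm38.p6 that run from 250 bases before to 50 bases after the transcription start. All 10 genes had a promoter in this table. Capitals mark the fixed bases, and each element is written 5′ to 3′ in its own orientation:
Hspa5, chr2:34772025-34772043: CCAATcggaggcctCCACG
Hsp90b1, chr10:86705533-86705551: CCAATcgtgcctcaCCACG
Hsp90b1, chr10:86705638-86705656: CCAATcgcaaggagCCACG
Pdia6, chr12:17266491-17266509: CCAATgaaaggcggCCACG
Calr, chr8:84847075-84847093: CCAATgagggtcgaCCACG
Canx, chr11:50325800-50325818: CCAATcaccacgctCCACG
Herpud1, chr8:94386377-94386387: ATTGGgCCACG

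An ERSE was thus found in 5 of the 10 promoters, against 39 of all 32851 promoters (0.119%). ERSE and ERSE-II are known as elements of chaperone and UPR genes, the role by which the 10 were listed. Their contrast with all promoters is therefore not independent of that choice and is no test. The copies of Hspa5, Pdia6 and Canx and the copy of Hsp90b1 farther from the start lie on the strand of the gene, and those of Calr and the nearer copy of Hsp90b1 lie on the other strand. The base nearest to the start is 47 nt upstream of it in Hspa5, 80 nt in Pdia6, 89 nt and 194 nt in Hsp90b1, 127 nt in Canx and 144 nt in Calr. ERSE-II was found in Herpud1, 42 nt upstream of the start and on the strand of the gene, and in 12 of all promoters (0.0365%). The ATF6 and XBP1 element UPRE, searched as TGACGTGG on both strands, was found in none of the 10 and in 0.676% of all promoters. Pdia3, Pdia4, Dnajb9 and Xbp1 held none of the 3 motifs in this window. The log2 change in RC8 ran from −1.15 to −0.30 in the 5 genes with an ERSE and from −1.25 to 0.12 in the 5 without, so that these ranges overlapped. A match is a description of these letters and does not show binding.

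**Figure D1:**
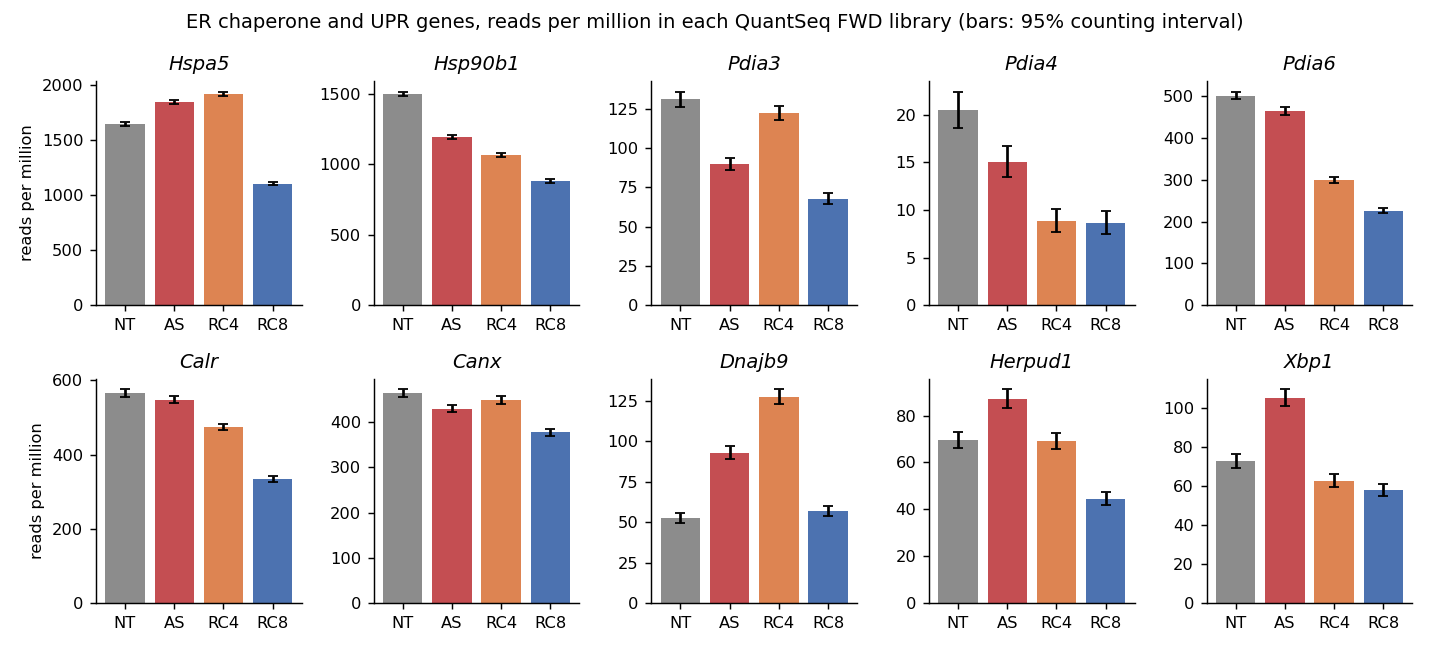
Level in RPM (y axis, from 0, scaled per gene) of each of the 10 genes in the NT, AS, RC4 and RC8 libraries, 1 library each, with 95% Poisson counting intervals. Dnajb9 was highest in RC4 at 127 RPM and near its NT level in RC8, while the other 9 genes had their lowest level in RC8.

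The 10 genes did not move together. After 1 h of arsenite, Dnajb9 was higher by over 1.5-fold and Xbp1 was just short of that, while Hspa5 was higher by 1.12-fold and the other chaperones and oxidoreductases were lower by at most 1.46-fold. After 8 h of recovery, 6 of the 10 were lower by over 1.5-fold and none was higher. The summed level of the 10 genes was 5025 RPM in NT and 4879 RPM, 4605 RPM and 3159 RPM in AS, RC4 and RC8. The RC8 sum was 37.2% below NT. Hspa5 and Hsp90b1 gave 62.6% of these reads in NT, so the sum mostly follows this pair.

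In AS against NT, 1 of the 10 genes was called higher and none lower, where 1.88% of all 10452 genes were called higher and 11.4% lower. The median log2 change of the 10 was −0.08, from −0.55 to 0.82. In RC4 against NT, 1 was called higher and 2 lower, against 8.04% and 31.8% of all 10081 genes. Their median was −0.16, which is above the median of all genes in that comparison. In RC8 against NT, 6 were called lower (Hsp90b1, Pdia3, Pdia4, Pdia6, Calr and Herpud1) and none higher, against 11.9% and 11.3% of all 10441 genes. The RC8 median was −0.70, and Dnajb9 was the only 1 of the 10 with a value above 0. At 2-fold, 0 of the 10 were higher and 0 lower in AS, against 0.622% and 3.22% of all genes. In RC4, Dnajb9 was higher and Pdia4 lower by over 2-fold, against 3.69% and 13.4%, and in RC8 none was higher and Pdia4 and Pdia6 were lower, against 2.97% and 3.53%. The 3 comparisons share the NT library and are therefore not independent of each other.

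**Figure D2:**
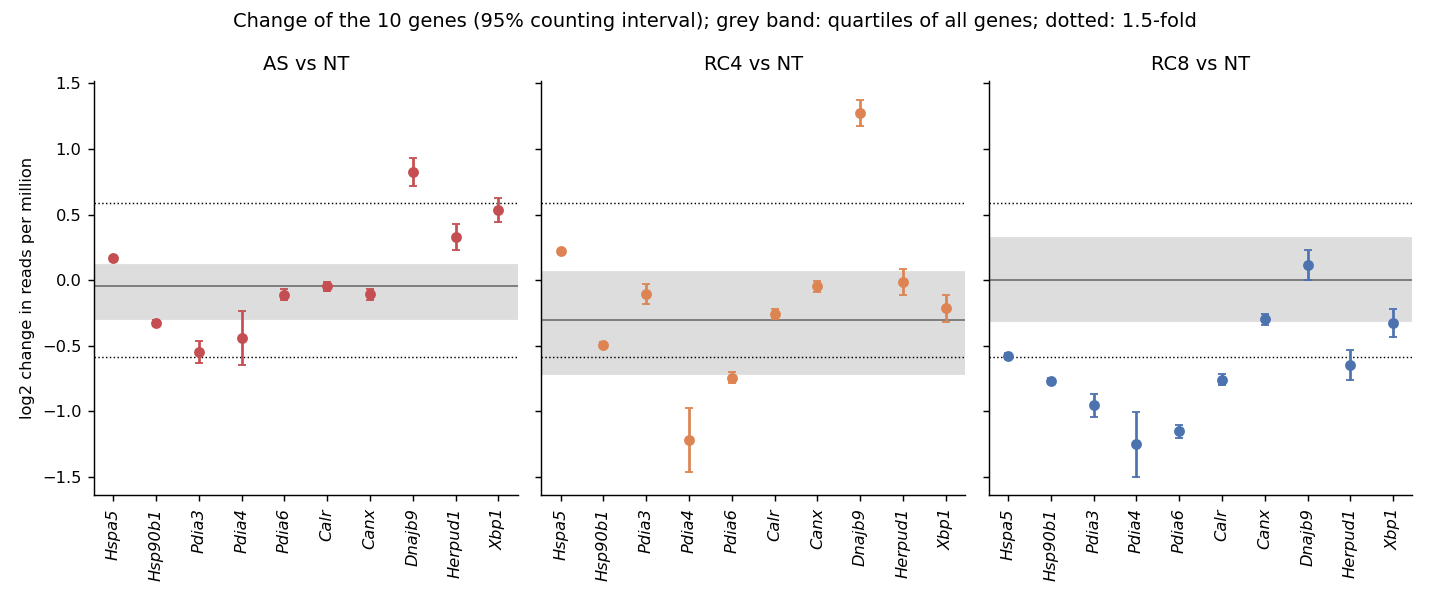
Log2 change in RPM against NT (y axis) of the 10 genes (x axis) in AS, RC4 and RC8, with 95% exact counting intervals. The grey line is the median and the grey band the quartile range of all genes in that comparison, and dotted lines mark 1.5-fold. In RC8, 8 of the 10 genes lie below the grey band and Dnajb9 is above the median.

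Hspa5 encodes BiP, the ER Hsp70 that binds unfolded chains and holds the sensors inactive. It had 1648 RPM in NT and 1849, 1924 and 1104 in AS, RC4 and RC8. The log2 change was 0.17 (0.15 to 0.19), 0.22 (0.20 to 0.24) and −0.58 (−0.60 to −0.56) in AS, RC4 and RC8. Its level was thus above NT in the first 2 treated libraries and below it in the last, and the intervals of the 4 libraries do not overlap. The RC8 change was 1.49-fold, just outside the limit for a call. Between RC4 and RC8 the level fell by 1.74-fold. The genes with the closest pattern over the 3 changes among 8939 genes with 200 or more NT reads were Mmp3 (stromelysin-1), at a Euclidean distance of 0.04 log2 units, Gm11478 at 0.08 and Atg12, a conjugation factor of autophagy, at 0.09.

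Hsp90b1 encodes GRP94, which completes the folding of a limited set of secreted and membrane proteins. Its level was 1500 RPM in NT and 1197, 1067 and 881 in AS, RC4 and RC8. Unlike Hspa5, it was below NT in every treated library, each step being larger than the counting intervals. The log2 change was −0.33, −0.49 and −0.77 (−0.79 to −0.74) in AS, RC4 and RC8. Thus the Hsp70 and Hsp90 of the ER, both with an ERSE, had opposite signs in AS and in RC4. The 3′ end of Hsp90b1 overlaps 1810014B01Rik on the opposite strand in GENCODE vM1, and how reads of the 2 genes were kept apart is not given in the sources used here.

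The oxidoreductases had the lowest changes of the 10 genes in RC8. Pdia6, a PDI that also acts on the activated sensors, had 501 RPM in NT and 465, 300.0 and 226 in AS, RC4 and RC8. It was called lower in RC4 (log2 change −0.74) and in RC8 (−1.15), where 2.24% of all genes had a lower value. Pdia4 (ERp72) had 20.5 RPM in NT and 15.1, 8.82 and 8.61 in AS, RC4 and RC8. Its log2 change was −0.44 (−0.65 to −0.24), −1.22 (−1.46 to −0.97) and −1.25 (−1.50 to −1.01), and RC4 and RC8 were within counting error of each other. Pdia4 has the fewest reads of the 10, 198 to 462 per library, and the 2 count columns of its RC8 library stood at a ratio of 0.692. Pdia3 (ERp57), which works with the lectin chaperones, had 131 RPM in NT and 89.7, 122 and 67.8 in AS, RC4 and RC8. This gene was lower after arsenite, near NT at 4 h and lower again at 8 h, with log2 changes of −0.55, −0.11 and −0.95. The AS value, 1.46-fold lower, was just outside the limit.

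The lectin chaperones hold newly made glycoproteins until they fold, Calr in the lumen and Canx in the membrane. Calr had 566 RPM in NT and 548, 474 and 335 in AS, RC4 and RC8. On the log2 scale its change was −0.05, −0.26 and −0.76 (−0.80 to −0.72), of which the RC8 value alone passed 1.5-fold. Canx had 464 RPM in NT and 431, 450.0 and 378 in AS, RC4 and RC8. Its log2 change stayed between −0.30 and −0.05, so that of this pair the soluble lectin was called in RC8 and the membrane lectin was not.

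The 3 UPR genes were all above NT after arsenite. Dnajb9 had 52.6 RPM in NT and 93.0, 127 and 57.0 in AS, RC4 and RC8. The log2 change was 0.82 (0.72 to 0.93) in AS and 1.28 (1.18 to 1.37) in RC4, values above those of 99.0% and 97.9% of all genes. In RC8 it was 0.12 (0.00 to 0.23), so the level was back near NT after a fall of 2.24-fold between RC4 and RC8. Xbp1 had 72.5 RPM in NT and 105, 62.6 and 57.9 in AS, RC4 and RC8. It was higher only in AS, by 1.45-fold (log2 0.53, 0.44 to 0.63), just outside the limit but above 97.8% of all genes, and its log2 change was −0.21 in RC4 and −0.33 in RC8. Reads were counted per gene, so the spliced and unspliced forms of Xbp1 are not separated.

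Herpud1 had 69.5 RPM in NT and 87.2, 69.0 and 44.5 in AS, RC4 and RC8. The log2 change was 0.33 (0.23 to 0.42), −0.01 (−0.11 to 0.09) and −0.64 (−0.76 to −0.53) in AS, RC4 and RC8. Its course was therefore a small increase, a level like that of NT, and a value just inside the limit for a call. The closest patterns among the same 8939 genes were those of Haus1 (a subunit of the augmin complex), Eef1d (a translation elongation factor) and Gmds (an enzyme of GDP-fucose synthesis), at distances of 0.16 to 0.18. Added together, Dnajb9, Herpud1 and Xbp1 had 195 RPM in NT and 285, 259 and 159 in AS, RC4 and RC8. The other 7 genes added up to 4831, 4594, 4346 and 2999 RPM. In RPM, that sum was below NT in every treated library, although Hspa5, 1 of these 7, was above NT in AS and in RC4. The RC4 change of the sum was −0.16 on the log2 scale, where the median gene was at −0.30. Its sign in RC4 therefore depends on the scaling.

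From AS to RC4, 3 of the 10 were called lower (Pdia4, Pdia6 and Xbp1, the last by 1.68-fold) and none higher, against 26.6% and 12.6% of 9875 genes. With TMM or median ratio factors none was called lower in this step and 2 (Pdia3 and Dnajb9) were called higher. The shares of all genes above are for RPM and do not apply to these 2 counts. From RC4 to RC8, 4 were called lower (Hspa5, Pdia3, Dnajb9 and Herpud1) and none higher, against 6.51% and 30.6%. All 10 had a log2 change below 0 in that step, with a median of −0.46 where the median of all genes was 0.26, and for Pdia4 the interval included 0. With either of those factors 6 were called lower in this last step. The share of all genes under those factors is not given for either step, so these counts have no background beside them.

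The RC4 values depend on the scaling, because the median gene was 0.30 lower on the log2 scale in that library. With the TMM factors of edgeR, which put the median gene near 0, the median of the 10 genes in RC4 was 0.13 in place of −0.16. Genes called higher and lower were then 14.6% and 18% of all, in place of 8.04% and 31.8%. Pdia3, Calr, Canx, Herpud1 and Xbp1, none of them called, had values above 0 in RC4 under TMM and under the median ratio factors of DESeq2. Dnajb9 stayed above and Pdia4 below 1.5-fold under both scalings, and Pdia6 was called lower under neither.

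Other genes of the system were taken as lists, and their values are read beside those of all genes given above. Of 25 further ER folding factors 24 were listed. Calls higher and lower numbered 0 and 3 for AS, 1 and 8 for RC4, then 0 and 8 for RC8, with list medians of −0.04, −0.47 and −0.41. In RC8 the 8 of 24 called lower stand beside 11.9% of all genes, and in RC4 beside 31.8%. With TMM or median ratio factors 5 in place of 8 were called lower in RC4. The lowest were Tmx3 (a thioredoxin-related membrane protein) at −0.98 in AS, Sdf2l1 (a partner of BiP) at −1.64 in RC4 and Fkbp2 (a prolyl isomerase) at −1.57 in RC8. Ero1l, the oxidase that recharges PDIs, was at 0.69 in RC4. Among 24 of 24 genes of translocation and N-glycosylation, none was called higher in any comparison. Called lower were 1, 4 and 4 in AS, RC4 and RC8, the AS count being 0 and the RC4 count 3 under both factors. Spcs3, a subunit of signal peptidase, was the lowest of these genes each time, at −0.59, −1.94 and −1.24.

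ER-associated degradation, the pathway of Herpud1, returns misfolded proteins to the cytosol for destruction. Of 18 further genes 16 were listed, and calls higher and lower numbered 0 and 3 for AS, 2 and 3 for RC4, then 0 and 1 for RC8. All genes had 11.3% higher and 11.9% lower in RC8, and 8.04% and 31.8% in RC4. Under both factors 1 in place of 3 was called lower in RC4. The RC8 median of this list was 0.03, like that of all genes. Edem3, which trims mannose from misfolded glycoproteins, was at −1.22 in AS and −1.14 in RC4, Ubxn4 (an ER membrane protein of this pathway) at 0.78 in RC4, and the lectin Erlec1 at −0.62 in RC8. Of the 9 sensors and processing factors, calls lower numbered 1, 6 and 2 in AS, RC4 and RC8, and 1 gene was called higher in RC4 and in RC8. Under both factors 4 in place of 6 were called lower in RC4. The higher gene was Ern1, which encodes IRE1, at 1.1 and 0.64, on 157 to 500 reads. Lowest were Mbtps2 (the protease that releases ATF6) at −0.86 in AS, Creb3l2 (an ER-anchored transcription factor) at −1.23 in RC4 and Eif2ak3 (PERK) at −0.64 in RC8.

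Genes listed as targets of the PERK branch had more calls higher than lower in each comparison. The activity of PERK was not measured, and which kinase acts on these genes was not tested. Of 8 genes 7 were listed, and 4, 5 and 3 were called higher for AS, RC4 and RC8, with medians of 0.62, 1.36 and 0.28. Over all genes, 1.88%, 8.04% and 11.3% were called higher in these comparisons. Ppp1r15a (GADD34, which restores translation) was at 2.23 in AS, Trib3 (a pseudokinase induced by ATF4) at 2.24 in RC4 and Asns (asparagine synthetase) at 1.03 in RC8. Atf4 itself was the only gene of this list called lower, at −0.84 in RC8. Of 10 arsenite-inducible genes of the cytosol and nucleus 8 were listed, and 6, 8 and 5 were called higher, led by Egr1 at 2.61 in AS, Hspa1b at 5.80 in RC4 and Mt1 (a metallothionein) at 2.12 in RC8. Transcripts reported as cut by IRE1 did not move one way. With 6 listed in AS and RC8 and 5 in RC4, none was called in AS, while in RC4 and in RC8 1 was called higher and 2 lower. Over all genes, 31.8% were called lower in RC4 and 11.9% in RC8. Under both factors the RC4 counts were 2 higher and 1 lower. Hgsnat (a lysosomal acetyltransferase) was at 2.74 in RC4 and 2.79 in RC8, and Pdgfrb (a growth factor receptor) at −2.18 and −1.34. Pdgfrb is also among the fibroblast markers.

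**Figure D3:**
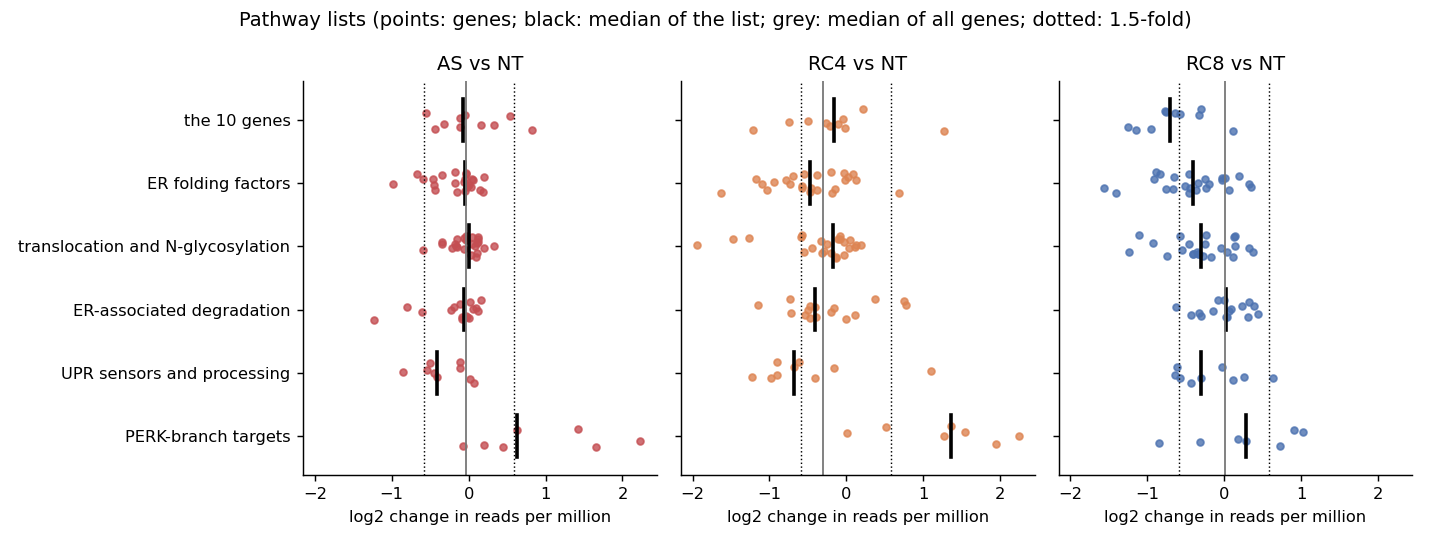
Log2 change in RPM against NT (x axis) of the 10 genes and of 5 pathway lists (rows) in AS, RC4 and RC8, with 1 point per gene (vertical scatter has no meaning). Black bars are list medians, the grey line is the median of all genes and dotted lines mark 1.5-fold. In RC8 the median of the 10 genes is −0.70, that of the other ER folding factors −0.41 and that of the PERK-branch targets 0.28.

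The fibroblast markers used to check the cell type were read in the same way. Of the 9 listed, none was called in AS, 4 were called lower in RC4 and 6 in RC8, and their RC8 median was −0.86. With TMM or median ratio factors 3 in place of 4 were called lower in RC4. In RC8 8 of the 9 were below NT and Fn1 (fibronectin) was at 0.06 on the log2 scale. Their summed level was 14572 to 14613 RPM in NT and 15163, 11614 and 8756 in AS, RC4 and RC8. S100a4, a calcium-binding protein of the cytosol, gave 70.5% of this sum in NT and 65.3% in RC8. Without S100a4 the sum was 4297 to 4317 RPM in NT and 4296, 3525 and 3041 in AS, RC4 and RC8. The part of these markers in the result was not tested. Apart from the 10 genes, 32 genes have an ERSE in a promoter and 5 of them were listed (Creld2, Dnajc3, Hnrnpa3, Pan2 and Syvn1). None was called in AS, Creld2, Pan2 and Syvn1 were called lower in RC4, and Dnajc3 alone was called lower in RC8, by 0.76 on the log2 scale. All genes called lower were 31.8% in RC4 and 11.9% in RC8. With TMM or median ratio factors, chosen after seeing the data, Creld2 alone was called lower in RC4, and the RC8 call did not change. These 5 genes were picked through the motif after values had been seen.

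Poly(A) sites (PASs) of the 10 genes were compared next. MAAPER assigns the reads of a gene to PASs of PolyA_DB by their distance from each site, and the share of reads per PAS is given with a 95% Wilson interval. This interval covers counting only and leaves out the error of that assignment, as do the isoform levels in RPM. For Hsp90b1 the NT library was divided over 2 PASs in the comparison with AS and given 1 other PAS in that with RC4. Hspa5 and Xbp1 had a single listed PAS in all 3 tables, and 7 of the 10 genes had more than 1 PAS in each table. A PAS share that moved by at least 10 points was counted as a shift. In AS 0 of 7 genes shifted, against 15.2% of 5287 genes with more than 1 PAS. In RC4 2 of 7 shifted (Pdia4 and Pdia6), against 29%, and in RC8 4 of 7 (Hsp90b1, Pdia6, Calr and Dnajb9), against 26.9%. None of the 7 genes of each comparison moved by 20 points in AS, RC4 or RC8, against 2.02%, 7.34% and 4.97% of genes.

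The sites whose share moved by at least 10 points in Pdia6, Hsp90b1, Calr, Dnajb9 and Pdia4 are shown, with those of Herpud1, which moved in the direction of Pdia6 by less than 10 points. Each is given as the 30 bases of mm9 that end at the listed position, on the strand of the gene. Capitals mark a poly(A) signal hexamer where 1 was found, either the canonical AATAAA or ATTAAA, or 1 of 9 variants (AGTAAA or TATAAA or CATAAA or GATAAA or TTTAAA or ACTAAA, and AATATA or AATACA or AATAGA):
Pdia6 proximal, chr12:17290927-17290956: ggaaactgccaacagtgaacctcagcgtct
Pdia6 distal, chr12:17291158-17291187: taaaatgatattttggacaatgctGATAAA
Hsp90b1 proximal, chr10:86153685-86153714: tcacaggaagaagtggtttttttagttgaa
Hsp90b1 distal, chr10:86153559-86153588: aatactcagtgcttattttcataacacaaa
Herpud1 proximal, chr8:96919061-96919090: tgttcaaattacactaagtgtactacttta
Herpud1 distal, chr8:96919237-96919266: aagttttgctatgaatgactgtagcagaga
Dnajb9 second, chr12:45306882-45306911: taagagaaacTATAAAtatttacaacctga
Calr next to last, chr8:87366023-87366052: agctcacactgagagtgtaagaactacaaa
Calr last, chr8:87365920-87365949: ctaaaagcagcctttctcaggtgcgggtga
Pdia4 proximal, chr6:47746143-47746172: ttaatttaaacTTTAAAagtctttgccaaa
Pdia4 distal, chr6:47745665-47745694: gagtgtctgaagacagttaaaaaaaaaaaa

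AATAAA or ATTAAA lay in the window of 3 of the 28 PASs listed for the 10 genes (10.7%), against 47.0% of all 21565 PASs. With the variants the shares were 32.1% and 63.8%. No match says only that these letters are not in this window. A match was counted at any distance from the listed position and does not show that the hexamer is used. At the distal PAS of Pdia6 GATAAA ends 0 nt from the position, and at the distal PAS of Pdia3 AATAGA ends 5 nt from it. The 20 bases after the listed position held 10 A at the proximal PAS of Pdia6 and 3 A at that of Hsp90b1, and their part in the shares was not tested.

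Pdia6 (chr12:17273351-17291576 in mm9) used its proximal PAS less in every treated library. Both sites lie in the 3′ UTR, 231 nt apart. The proximal PAS had 18% of the reads in NT (17.3% to 18.7%), 13.6% after arsenite (13.0% to 14.3%), then 5.27% in RC4 (4.77% to 5.82%), while RC8 had 2.6% (2.2% to 3.07%). The share was lower in each later library, beyond the counting intervals, which leave out the error of assigning reads to PASs. In RPM, the proximal isoform had 90.2 in NT and 63.2, 15.8 and 5.86 in AS, RC4 and RC8, and the distal isoform had 411, 402, 284 and 220. Both isoforms were thus below NT in RC8, with log2 changes of −3.94 for the proximal and −0.90 for the distal. The log2 ratio of distal over proximal reads rose against NT by 0.48, 1.97 and 3.04 in AS, RC4 and RC8, with counting errors of 0.05, 0.09 and 0.13 (SE).

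Hsp90b1 and Herpud1 moved the same way. The proximal PAS of Hsp90b1, 126 nt before the distal, had 44.7% of the reads in NT and 41.3% in AS, and in the table for RC8 44.3% in NT and 24.9% in RC8 (24.3% to 25.5%). The RC8 change of 19.4 points was the largest of the 10 genes. In the table for RC4 Hsp90b1 has a single PAS at a position between these, so no share was compared there. The proximal isoform of Hsp90b1 was at 219 RPM in RC8 against 664 in NT, and the distal isoform at 662 against 835. For Herpud1, the proximal PAS 176 nt before the distal had 10.1% in NT and 6.37%, 5.76% and 4.09% (3.05% to 5.50%) in AS, RC4 and RC8, which did not reach 10 points. In AS the proximal isoform of Herpud1 was at 5.55 RPM against 7.02 in NT while the distal isoform was at 81.6 against 62.5, so the small increase of the gene lay in the distal isoform.

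Pdia3 went the other way at first. Its proximal PAS, 306 nt before the distal, had 13.9% in NT and 18.4%, 18.1% and 12.4% in AS, RC4 and RC8. The log2 ratio of distal over proximal reads changed by −0.48, −0.45 and 0.19, the last with a counting error of 0.13. Over all 2446 to 2504 genes with 2 PASs in the 3′-most exon, the median of this change for AS, RC4 and RC8 was −0.14, −0.22 and −0.09, where 36.1%, 35.0% and 45.0% of genes were above 0. Pdia6 and Herpud1 were above 0 in all 3 comparisons and Hsp90b1 in both that list 2 PASs.

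**Figure D4:**
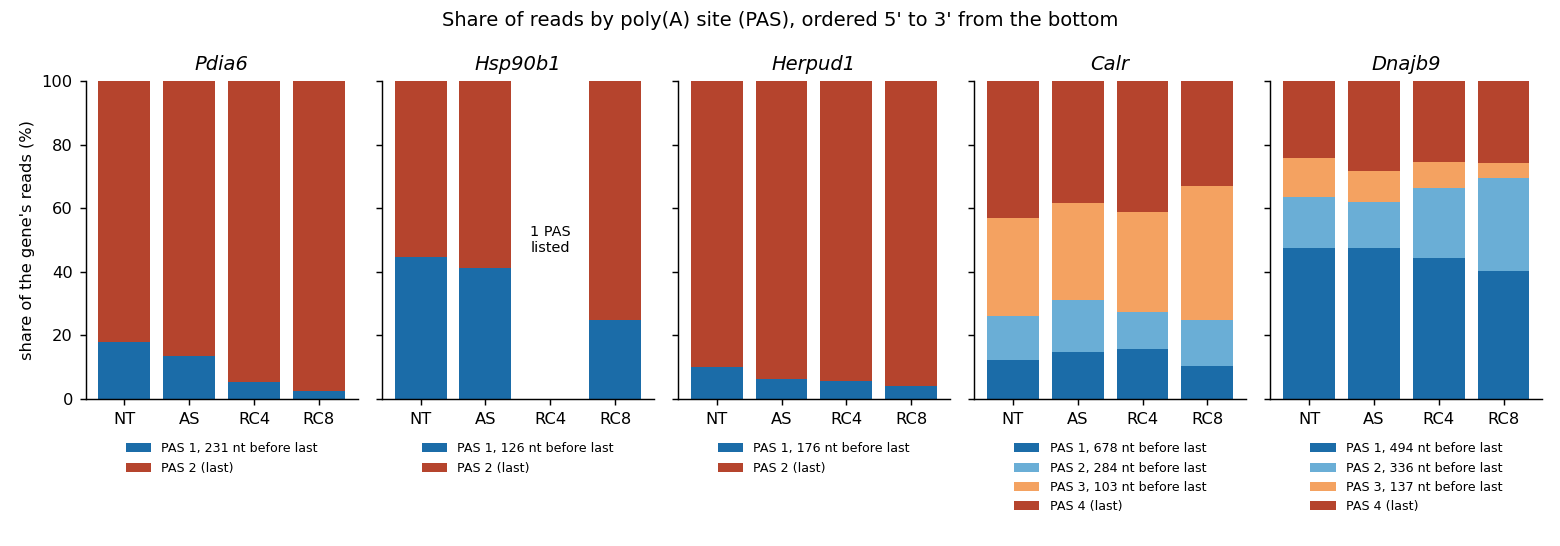
Share of the reads of a gene (y axis, percent) by PAS in NT, AS, RC4 and RC8 for Pdia6, Hsp90b1, Herpud1, Calr and Dnajb9, stacked from the most proximal PAS at the bottom to the last PAS at the top (NT from the table for AS). The proximal share of Pdia6 falls from 18% to 2.6%, and the RC4 table lists a single PAS for Hsp90b1.

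Dnajb9 and Calr each had 4 PASs. In Dnajb9 the second PAS, 336 nt before the last, had 16% of the reads in NT and 14.7%, 22.2% and 29.3% (26.9% to 31.8%) in AS, RC4 and RC8, and the third had 12.3%, 9.48%, 8.08% and 4.85%. The first PAS had 47.4% in NT and 40.2% in RC8. The level of Dnajb9 in RC8 was near that of NT, but its PAS profile differed. The second isoform was at 16.7 RPM against 8.41 in NT and the third at 2.76 against 6.47. The last 3 of these PASs lie past the end of the gene in GENCODE vM1. In Calr the third PAS, next to the last, had 30.4% in NT and 42.2% in RC8, and the last PAS 43.5% and 33%. The first PAS of Calr lies in coding sequence, with 9 A in the next 20 bases, and the third has 10 A there.

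Pdia4 and Canx had PASs listed in only some of the tables. A distal PAS of Pdia4, 478 nt past the other, is listed in the table for RC4 alone, with 7.16% of the reads in NT and 24.8% in RC4 (19.3% to 31.1%) on 202 reads. It lies 476 nt beyond the annotated end, with 9 A in the next 20 bases. Canx had 5, 6 and 5 PASs in the tables for AS, RC4 and RC8, and no share moved by more than 4.8 points. Its only PAS upstream of the 3′-most exon, in an internal coding exon, had 12.1% of the reads in NT and 14.6%, 16.8% and 11.8% in AS, RC4 and RC8.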

How the data were processed

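The authors trimmed the QuantSeq FWD reads with bbmap, mapped them to mm9 with STAR (2.5.2a in the submitters' processing notes), allowing reads that map to several loci, and ran MAAPER with PolyA_DB v3. The deposited counts of reads on each gene are not normalized and fill 2 columns per library, for genes with at least 50 reads. The labels do not explain these 2 columns, and they were taken as 2 runs of 1 library. The fraction of a gene's reads at each PAS was deposited by the authors per library. Columns named condition 1 and condition 2 were taken as NT and the treated library. The deposited P values, RLD and RED scores are the authors' own comparisons and were not used. The 4 QuantSeq REV libraries were not analysed here.

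The 2 count columns (chi-square 0.974 to 1.03 per degree of freedom) were added and scaled to the total of 22.4 M to 23.0 M reads. Ratios had exact conditional binomial intervals, levels exact Poisson intervals and shares Wilson intervals, at 95%, which cover counting error only. The methods' likelihood ratio test was not rerun, and a test with edgeR was not possible with 1 library per condition. Scaling was also done with TMM (edgeR 4.0.16) and median ratio factors (DESeq2 1.42.0) in R 4.3.3, and everything else in Python 3.11.15. In Poisson counts simulated at the depth of each comparison, all genes changed by 2-fold were called (100%), with 0 to 2 unchanged genes called higher and 3 to 6 lower. The changed genes had 200 or more NT reads. The simulation held no spread between cultures, so it does not show how many false calls such spread would give.

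The 10 genes and all lists were chosen with earlier results of these data known, and the motifs after values had been seen. All 10 genes were named, in each list the largest rise and fall past 1.5-fold among genes with 200 or more reads in either library, and the 3 genes nearest to Hspa5 and to Herpud1. Promoters are from RefSeq (GRCm38.p6) and PAS windows from NCBIM37 (mm9).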

Additional observations from a re-analysis of the deposited data

Results flagged for a closer look

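In RPM, 3 of the 10 genes moved one way in 1 treated library and the other way in another, with counting intervals on opposite sides of 0. With 1 library each, these differences were not tested. The log2 change of Hspa5 was 0.22 in RC4 and −0.58 in RC8, a difference of 0.80. That of Herpud1 was 0.33 in AS and −0.64 in RC8, a difference of 0.97. That of Xbp1 was 0.53 in AS and −0.33 in RC8, a difference of 0.86. The RC4 value of Hspa5 was taken against a median gene at −0.30. Which genes change sign depends on the scaling. With TMM factors Pdia3 was at −0.50 in AS and 0.18 in RC4, and Canx at −0.06 in AS and 0.24 in RC4.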

How the results depend on the processing

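No replicate could be left out and no paired analysis was possible because each condition has 1 library. The number of the 10 genes called higher in AS was 1, 2 with the first count column only and 0 at 2-fold. The number called lower in RC4 was 2, and 1 with TMM factors, with median ratio factors and at 2-fold. The number called lower in RC8 was 6, and 2 at 2-fold. Genes with a PAS shift numbered 2 in RC4 and 4 in RC8 at 10 points, and 0 in both at 20 points. The scalings of lists and of steps between treated libraries were chosen after seeing the data. With TMM factors and with median ratio factors alike, genes called lower in RC4 numbered 5 in place of 8 among ER folding factors and 1 in place of 3 in ER-associated degradation. In translocation and N-glycosylation 0 in place of 1 were called lower in AS, and among transcripts reported as cut by IRE1 2 in place of 1 were called higher and 1 in place of 2 lower in RC4. From AS to RC4, 2 in place of 0 of the 10 genes were called higher and 0 in place of 3 lower under both factors, with no share of all genes beside them. Of the 5 other genes with an ERSE, 1 in place of 3 was called lower in RC4 under both factors. Stricter thresholds leave fewer genes and these factors raise every RC4 value against NT. Any other cause was not tested. The other 191 counts for the 10 genes and the lists were within 1.5 times of the value given, and no called gene that is named reversed its direction. Of the values of single genes under the alternatives, 64 moved by more than counting error and 226 did not. Depth limits Pdia4 most, with 198 reads in RC8.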
